A study of Homo sapiens with 4 samples.

Results

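Amino acid transporter genes were examined in the human embryonic stem cell line H1 after 12 h with 1 µM XMD892, a compound that inhibits the kinase ERK5. The genes were chosen by symbol: SLC3A1, SLC3A2 and every gene named SLC1A, SLC7A, SLC36A, SLC38A or SLC43A followed by a number. The deposited table lists 33 such genes among its 19775 genes. The GENCODE 29 annotation holds 40 protein-coding genes with such names, and the 7 not listed were SLC1A7, SLC7A9, SLC7A13, SLC36A2, SLC36A3, SLC38A8 and SLC38A11.

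The labels describe 4 samples of wild-type H1 cells in E8, a defined medium with insulin, FGF2 and TGFβ: 2 that received 1 µM XMD892 for 12 h and 2 kept in E8 alone for 12 h. Poly(A) RNA was sequenced in paired-end reads. In the table, 1 column each matched the 2 XMD892 samples. The other 7 columns matched none of the samples' labels. Of these, 1 is named for XMD892 at 12 h with replicate number 3, a number that no label carries, so a further library of this treatment and time was not used here. The columns of cells in E8 alone are named for another time than the 12 h of those samples. The E8 samples were therefore not analysed here, and the values below are levels in XMD892-treated cells and differences between the 2 treated libraries. No effect of the compound can be read from them. Whether separate cultures gave the libraries is not stated in the labels, and their spread may be technical. The libraries held 18528689 (replicate 1) and 20217648 (replicate 2) recovered reads on listed genes.

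Amino acid transporters of the plasma membrane and the lysosome belong to several protein families. SLC3A2 (4F2hc, or CD98) and SLC3A1 (rBAT) are heavy chains that carry a light chain of the SLC7 family to the cell surface by a disulfide bond; the light chain performs the transport. The cationic members of the SLC7 family work without a heavy chain and import arginine and lysine. SLC1 and SLC38 proteins are coupled to sodium in most cases and import glutamate, glutamine, alanine and other small amino acids. Several of these genes are known targets of ATF4, the transcription factor made when amino acids run short, which binds C/EBP-ATF response elements. Human pluripotent cells depend on imported methionine and use much glutamine.

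The promoter windows that hold the core of such an element are shown first, because this letter pattern is what some of the members share beyond their names. RefSeq windows on GRCh38.p14, running from 250 bases before to 50 bases after an annotated start, were found for 25 of the 33 members, 47 windows in all. No window was used for SLC1A2, SLC3A1, SLC7A2, SLC7A3, SLC7A4, SLC7A11, SLC38A3 or SLC43A3. The motif TGATGNAA was searched on both strands, with no other motif searched. It was found in 6 of the 47 windows (12.8%), 1 each from SLC1A3, SLC1A4, SLC1A5, SLC3A2, SLC7A1 and SLC38A1, against 1270 of all 35116 windows (3.62%). Counted by gene, 24% of the members with a window and 4.46% of all 27305 genes with a window held it. The members had more windows per gene than all genes, and the share by gene was not adjusted for this. A match is a description of letters and not a binding site. The 60 bases around each match are given on the strand of the gene, with the motif in capitals; in SLC1A4 and SLC3A2 the capitals are its reverse complement.
SLC1A4: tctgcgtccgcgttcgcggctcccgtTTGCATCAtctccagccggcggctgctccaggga
SLC1A5: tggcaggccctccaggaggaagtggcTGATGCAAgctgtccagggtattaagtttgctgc
SLC1A3: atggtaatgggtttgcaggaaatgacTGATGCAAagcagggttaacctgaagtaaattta
SLC3A2: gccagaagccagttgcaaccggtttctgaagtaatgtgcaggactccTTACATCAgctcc
SLC7A1: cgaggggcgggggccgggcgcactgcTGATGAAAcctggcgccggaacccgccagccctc
SLC38A1: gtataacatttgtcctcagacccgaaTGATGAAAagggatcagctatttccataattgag

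The stretches lie at chr2:64989366-64989425 on the plus strand (SLC1A4), chr19:46784878-46784937 on the minus strand (SLC1A5) and chr5:36596342-36596401 on the plus strand (SLC1A3). Those of SLC3A2, SLC7A1 and SLC38A1 lie at chr11:62881689-62881748 on the plus strand, chr13:29595648-29595707 on the minus strand and chr12:46266487-46266546 on the minus strand. In SLC7A1 the window belongs to the outermost start that GENCODE gives the gene. In SLC1A4, SLC38A1, SLC1A5 and SLC3A2 it belongs to a start inside the gene, 0.922, 3.50, 3.78 and 25.6 kb downstream of the outermost one. In SLC1A3 it belongs to a RefSeq start 9.77 kb upstream of the GENCODE gene. SLC1A3, SLC1A4 and SLC1A5 have the same 8 letters, read on either strand.

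SLC7A5 encodes the light chain LAT1, which exchanges leucine, methionine and other large neutral amino acids. It showed the widest gap between the libraries, and its window is printed for that reason, with the bases from the start site onward in capitals. It lies at chr16:87869458-87869757 on the minus strand, has 80.3% G and C, holds 44 CG pairs and does not hold TGATGNAA on either strand.
SLC7A5: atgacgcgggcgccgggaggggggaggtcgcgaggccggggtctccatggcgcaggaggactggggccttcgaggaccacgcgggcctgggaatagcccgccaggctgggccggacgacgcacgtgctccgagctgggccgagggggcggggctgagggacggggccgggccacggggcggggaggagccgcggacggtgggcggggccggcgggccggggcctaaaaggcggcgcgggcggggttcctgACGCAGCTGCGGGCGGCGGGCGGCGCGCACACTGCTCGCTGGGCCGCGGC

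The members differed widely in level. Levels are given in RPKM, reads scaled by the kilobases of merged exon and by the recovered reads of the library. In both libraries 22 of the 33 members reached 1 RPKM, or 66.7%, against 59.6% of all 19262 genes with a length and 71.3% of the protein-coding ones. The median member stood at 2.29 RPKM, against 2.31 RPKM over all genes and 4.17 RPKM over protein-coding genes. A small number of members carried most of the signal: SLC7A5, SLC3A2, SLC38A2, SLC38A1 and SLC7A8 together took 71.4% of the members' reads in replicate 1 and 67.9% in replicate 2. All members together took 0.329% of the reads in replicate 1 and 0.197% in replicate 2. Without SLC7A5 these shares were 0.247% and 0.183%.

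**Figure D1:**
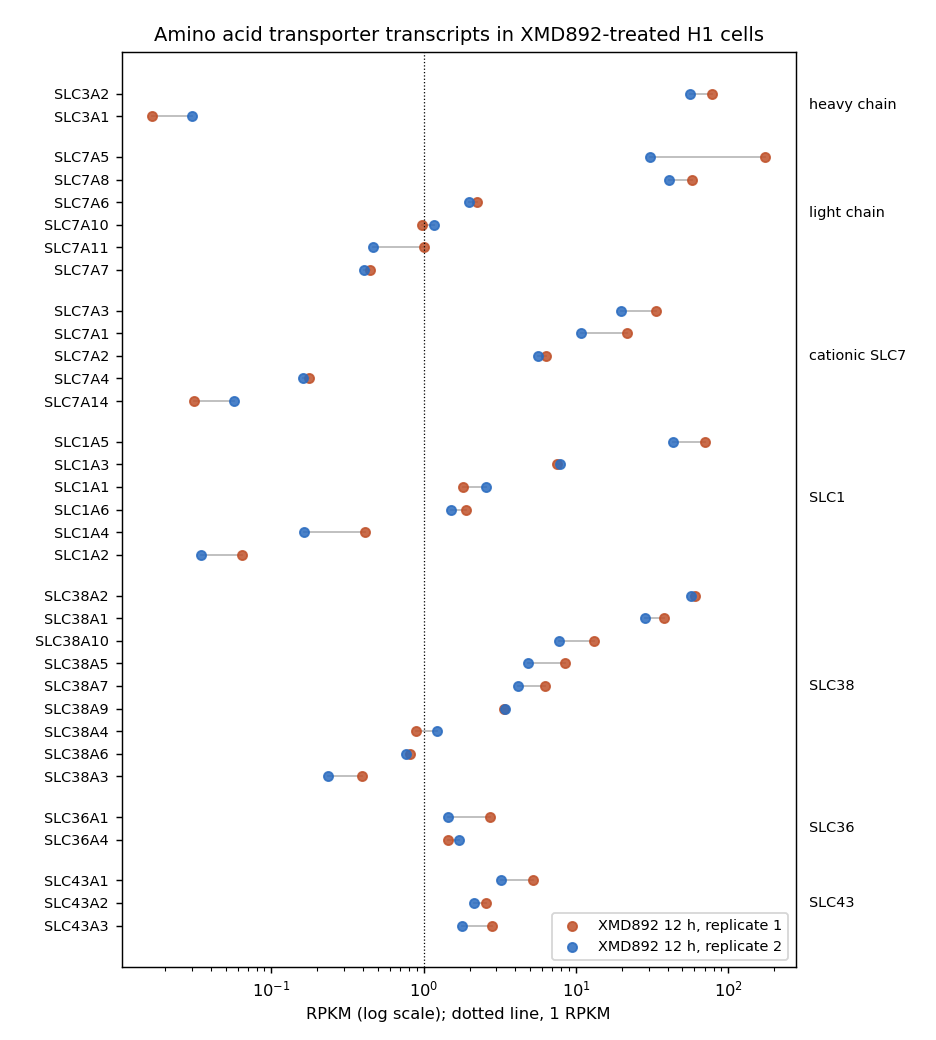
RPKM on a log scale for the 33 listed members, grouped by role, with 1 point per XMD892 library joined by a grey line and a dotted line at 1 RPKM. Levels run from 0.0165 RPKM (SLC3A1) to 174 RPKM (SLC7A5), both in replicate 1, and the line for SLC7A5 is far longer than those of the other abundant members.

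The heavy chain SLC3A2 stood at 78.3 RPKM in replicate 1 and 55.7 RPKM in replicate 2, with 7515 and 5831 reads. It was 1.31-fold higher in replicate 1 (95% counting interval 1.27 to 1.36). On GRCh38 it spans 62856102 to 62888875 of chromosome 11, plus strand. SLC3A1, the heavy chain of kidney and gut, was almost silent, with 2 and 4 reads. Its exons overlap those of PREPL on the opposite strand, which had 1073 and 1177 reads, and 52.6% of its 50-base words occur in transcripts of other genes, so even these few reads are uncertain in origin.

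Among the light chains, SLC7A5 and SLC7A8 were abundant and the others were not. SLC7A5 stood at 174 RPKM in replicate 1 and 30.5 RPKM in replicate 2, on 15316 and 2924 reads. It spans 87830023 to 87869488 of chromosome 16, minus strand. SLC7A8, which encodes LAT2, a second light chain for neutral amino acids, stood at 57.4 and 41.0 RPKM on 6369 and 4971 reads. Its position is chromosome 14, 23125295 to 23183674, on the minus strand. The 2 LAT genes therefore changed places between the libraries: SLC7A5 had 3.04 times the RPKM of SLC7A8 in replicate 1 and 0.743 times in replicate 2. SLC7A6 (y+LAT2), a light chain for cationic and neutral amino acids, stood at 2.24 and 1.99 RPKM. Its exons overlap SLC7A6OS on the opposite strand, and 51.4% of its words are shared with other genes, so its level is uncertain.

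The light chain of the cystine-glutamate exchanger, SLC7A11 (xCT), stood at 1.00 and 0.467 RPKM in replicates 1 and 2, on 179 and 91 reads, and shares 9.19% of its words, mostly with SLC7A11-AS1 on the opposite strand. SLC7A10, an exchanger of alanine, serine and cysteine, was at 0.972 and 1.18 RPKM, and SLC7A7 (y+LAT1) was at 0.442 and 0.405 RPKM. Summed over these 6 light chains, the level was 236 RPKM in replicate 1 and 75.6 RPKM in replicate 2. SLC7A5 made up 73.7% of that sum in replicate 1 and 40.3% in replicate 2. The sum was 3.02 times the RPKM of SLC3A2 in replicate 1 and 1.36 times in replicate 2. This ratio depends on the lengths: with the longest transcript as the length it was 1.48 in replicate 1 and 0.737 in replicate 2, and SLC3A2 rather than SLC7A5 had the highest mean. Under both lengths the ratio was lower in replicate 2, and SLC7A8 was below SLC7A5 in replicate 1 and above it in replicate 2.

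**Figure D2:**
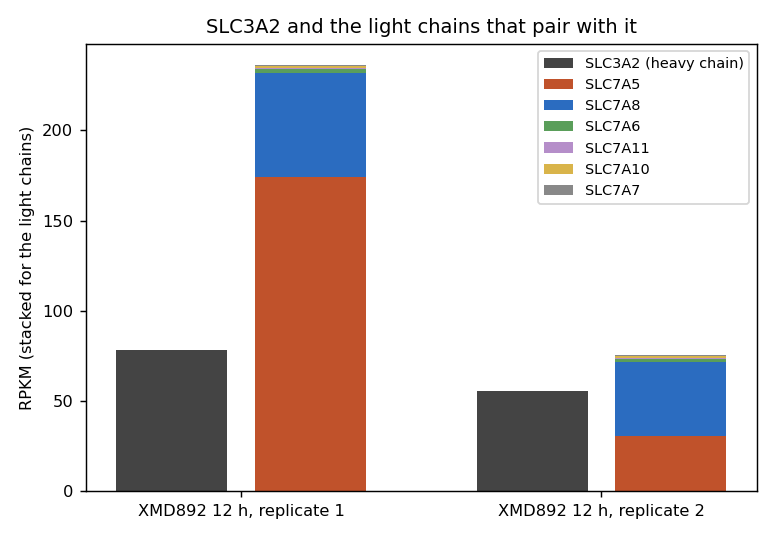
RPKM of the heavy chain SLC3A2 (dark bars) beside the stacked RPKM of the 6 light chains that pair with it, for each XMD892 library. The stack reaches 236 RPKM in replicate 1 and 75.6 RPKM in replicate 2, while SLC3A2 stands at 78.3 and 55.7 RPKM; most of the gap is the SLC7A5 segment.

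Of the cationic transporters, SLC7A3 (CAT3) had the highest mean, with 33.5 RPKM in replicate 1 and 19.8 RPKM in replicate 2 on 1406 and 907 reads. Its span is 70925582 to 70931125 of chromosome X, minus strand. SLC7A1 (CAT1), the widespread arginine importer, stood at 21.7 and 10.8 RPKM on 3098 and 1677 reads. SLC7A2 (CAT2) was lower and closer between the libraries, at 6.40 and 5.61 RPKM on 937 and 897 reads. The other members of this group were near the detection limit: SLC7A4, an orphan relative, had 8 reads in each library and SLC7A14, a lysosomal relative, had 6 and 12.

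In the SLC1 family the neutral exchanger SLC1A5 (ASCT2), a main route for glutamine, dominated with 70.3 RPKM in replicate 1 and 43.5 RPKM in replicate 2 on 4338 and 2933 reads. Its span is 46774883 to 46788594 of chromosome 19, minus strand. An annotated transcript on the opposite strand, AC008622.2, holds 21.3% of its words. Its close relative SLC1A4 (ASCT1), which exchanges alanine, serine and cysteine, was far lower at 0.412 and 0.164 RPKM on 53 and 23 reads. The glutamate transporter SLC1A3 (EAAT1) stood at 7.49 and 7.81 RPKM on 869 and 989 reads. Other glutamate transporters were lower, with SLC1A1 (EAAT3) at 1.81 and 2.57 RPKM, SLC1A6 (EAAT4) at 1.88 and 1.51 RPKM, and SLC1A2 (EAAT2) at 0.0638 and 0.0347 RPKM.

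The SLC38 family holds the sodium-coupled neutral transporters. SLC38A2 (SNAT2), which cells are known to raise when amino acids run short, stood at 60.1 RPKM in replicate 1 and 56.7 RPKM in replicate 2, on 7355 and 7571 reads. SLC38A1 (SNAT1) stood at 37.7 and 28.4 RPKM on 6988 and 5760 reads. These genes are neighbours on chromosome 12, 88.2 kb apart, with SLC38A4 (SNAT4) 391.9 kb beyond SLC38A2 and no other protein-coding gene in either gap. SLC38A4 had 68 and 102 reads, or 0.885 and 1.22 RPKM. Adjacent genes of 1 family thus spanned a mean of 1.05 to 58.4 RPKM.

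SLC38A10 stood at 13.2 RPKM in replicate 1 and 7.72 RPKM in replicate 2 on 1889 and 1205 reads. SLC38A5 (SNAT5), which carries glutamine, was at 8.42 and 4.81 RPKM on 626 and 390 reads. SLC38A7 (SNAT7), which exports glutamine from lysosomes, was at 6.21 and 4.16 RPKM on 805 and 588 reads. SLC38A9, the lysosomal arginine sensor upstream of mTORC1, was nearly level at 3.36 and 3.42 RPKM. SLC38A6 and SLC38A3 (SNAT3) were below 1 RPKM in both libraries.

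The remaining families were expressed at low levels. The proton-coupled transporter SLC36A1 (PAT1) stood at 2.74 RPKM in replicate 1 and 1.44 RPKM in replicate 2, and its relative SLC36A4 (PAT4) at 1.45 and 1.72 RPKM. The SLC43 genes, of which SLC43A1 (LAT3) and SLC43A2 (LAT4) encode carriers of large neutral amino acids without a heavy chain, summed to 10.6 and 7.14 RPKM. SLC43A1 was the highest of them at 5.21 and 3.21 RPKM. SLC43A3, a relative known as a purine nucleobase transporter, was at 2.80 and 1.78 RPKM and shares 24.3% of its words with other genes.

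In the order of mean level, SLC7A5 (102 ± 101.6 RPKM, SD, n = 2) was followed by SLC3A2 (67.0 ± 16.0), SLC38A2 (58.4 ± 2.41), SLC1A5 (56.9 ± 18.9) and SLC7A8 (49.2 ± 11.6). Each neighbour in this run overlapped the next in range. Within each library SLC3A2, SLC38A2 and SLC1A5 were above SLC7A8, and SLC3A2 was above SLC1A5. With the longest transcript as the length, SLC38A2 and SLC1A5 were slightly below SLC7A8 in replicate 1 and SLC1A5 was below it in replicate 2, so part of this order rests on the lengths. SLC38A1 followed at 33.1 ± 6.51 RPKM, with a range below that of SLC7A8, and then SLC7A3 at 26.7 ± 9.68 RPKM. In all, 7 members had a mean of at least 20 RPKM and 13 a mean of at least 5 RPKM.

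The spread between the treated libraries was then examined gene by gene, since it sets what these samples can resolve. Differences are log2(normalized count + 1) in replicate 2 minus replicate 1, for genes whose normalized count averaged 10 or more; 30 members and 16148 genes in all reached that minimum, and SLC3A1, SLC7A4 and SLC7A14 did not. Of the 30 members, 22 were higher in replicate 1 and 8 in replicate 2, where 47.9% of all compared genes were higher in replicate 1. The median member differed by -0.39, against 0.023 over all compared genes. These are gaps between 2 single libraries, without a test or a replicate check, and they cannot say which of the 2 is unusual; the further column named for this treatment and time was not used. In bulk RNA a different mix of cells and a different level per cell cannot be told apart.

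The gap of SLC7A5 was of another order than those of the other members. It had 16441 normalized counts in replicate 1 and 3086 in replicate 2, a 5.33-fold difference (95% counting interval 5.12 to 5.55). Of the 282 other genes with a mean normalized count at least as high, none differed by as much on this scale. The largest absolute difference among them was 1.34, for the glycolytic gene PGK1, against a difference of -2.41 for SLC7A5. Across all compared genes, 88 had a more negative difference. That count keeps the sign, so it leaves out gaps as wide toward replicate 2, such as that of DDIT4 at 3.09. SLC7A5 overlaps AC126696.2 on the opposite strand by 271 exon bases and shares 8.65% of its words with other genes. Its pseudogene SLC7A5P1 had 32 and 28 reads, and AC126696.2 was not listed. The part of reads from shared sequence in the gap was not tested.

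The other member with a gap of at least 1 on the log2(normalized count + 1) scale, a 2-fold gap, was SLC1A4, 2.34-fold higher in replicate 1 (interval 1.41 to 4.01) on 53 and 23 reads. These 2 of 30 members amount to 6.67%, and 10.9% of all compared genes passed in either direction. SLC7A11 lay on the edge, at -0.99 on that scale and 2.00-fold as a ratio of normalized counts, by which 3 of 30 members would pass. It was followed by SLC7A1 (1.88-fold higher in replicate 1, interval 1.77 to 2.00). When libraries were scaled by total reads instead of the deposited size factors, SLC7A11 and SLC7A1 also passed 2-fold; with TMM scaling, SLC7A11 did.

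The shift toward replicate 1 consisted mostly of moderate gaps in well-covered genes. SLC36A1 was 1.77-fold higher there, SLC38A5 1.63-fold, SLC38A10 1.59-fold, SLC7A3 1.58-fold and SLC38A7 1.39-fold, and SLC1A5 had a counting interval of 1.44 to 1.58. The heavy chain SLC3A2 and the light chain SLC7A8 differed by nearly the same factor, 1.31-fold and 1.30-fold. Counting intervals excluded equal levels for 15 members higher in replicate 1 and for 4 higher in replicate 2. These 19 of 30 members compare with 58.1% of all compared genes, 27.3% higher in replicate 1 and 30.8% higher in replicate 2.

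The 4 members higher in replicate 2 in this sense were SLC1A1 (1.53-fold, interval 1.22 to 1.91), SLC38A4 (1.47-fold), SLC36A4 (1.27-fold) and SLC1A3 (1.12-fold). Among the abundant members SLC38A2 was the steadiest, with a ratio of 1.01 and an interval of 0.980 to 1.05. The 4 compared glutamate transporters were divided, with SLC1A1 and SLC1A3 higher in replicate 2 and SLC1A2 and SLC1A6 higher in replicate 1. SLC1A2 was 1.72-fold and SLC1A6 1.16-fold higher there, with intervals (0.892 to 3.41 and 0.970 to 1.39) that included equal levels.

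**Figure D3:**
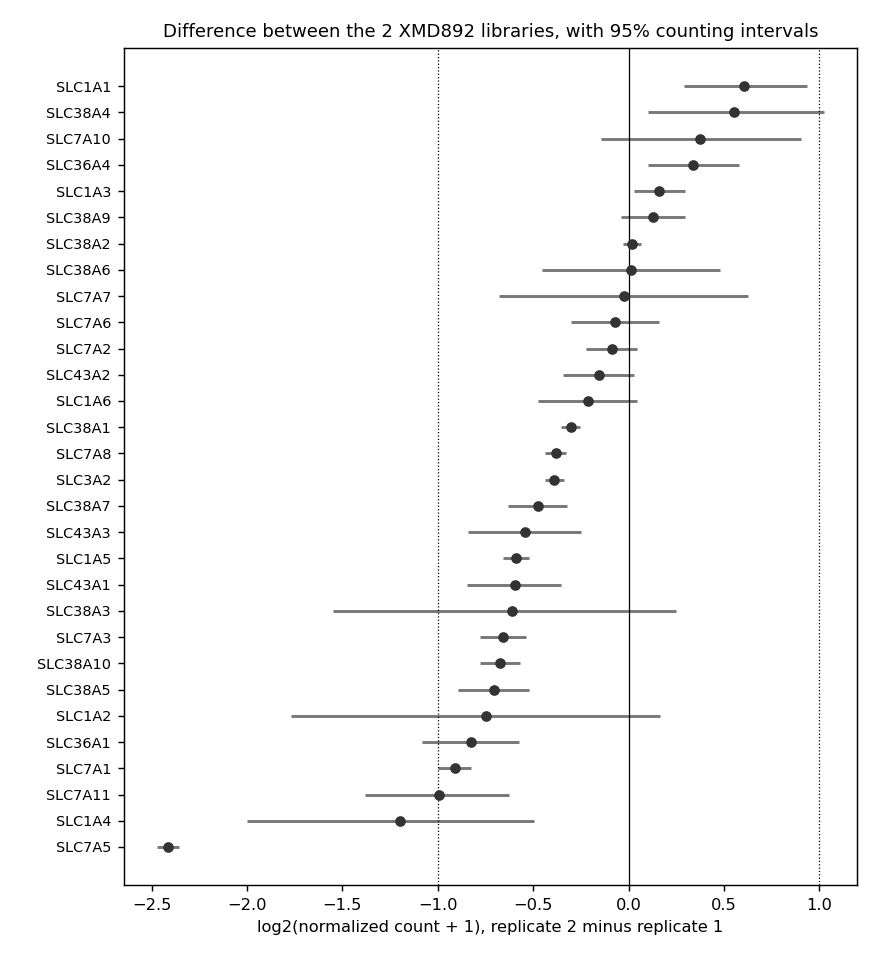
Difference between the XMD892 libraries for the 30 compared members, as log2(normalized count + 1) in replicate 2 minus replicate 1, with 95% exact counting intervals as bars and dotted lines at a 2-fold gap. SLC7A5 stands alone at -2.41, 22 members lie left of 0 and none lies beyond 2-fold toward replicate 2.

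**Figure D4:**
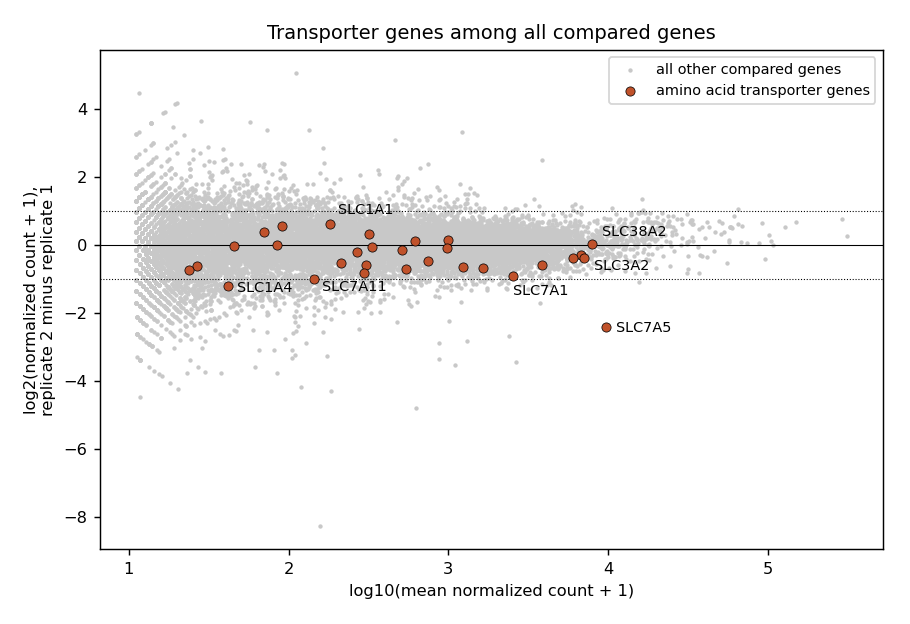
The same difference against log10(mean normalized count + 1) for all 16148 compared genes (grey) with the 30 members in colour and dotted lines at a 2-fold gap. SLC7A5 lies below the other genes of its abundance, and most other members lie within the grey band.

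By role, all 3 compared cationic SLC7 genes and all 3 SLC43 genes were higher in replicate 1, as were 5 of 6 light chains and 4 of 6 SLC1 genes. The SLC38 family was divided, with 5 members higher in replicate 1 and 4 in replicate 2, and of the 2 SLC36 genes 1 lay on each side. These counts are of signs alone, beside 47.9% of all compared genes higher in replicate 1. Counting intervals included equal levels for SLC7A2, SLC43A2, SLC7A6, SLC7A7, SLC7A10, SLC1A2, SLC1A6, SLC38A2, SLC38A3, SLC38A6 and SLC38A9. With total reads as the scale, SLC38A2 and SLC38A6 turned from replicate 2 to replicate 1, and the median of all compared genes moved from 0.023 to -0.077. Of the 6 members whose windows held TGATGNAA, 5 were higher in replicate 1 with a median difference of -0.49. Among 18 compared members with a window but no match, SLC7A5 included, 11 were higher in replicate 1 and the median was -0.11. The 6 compared members without a window were all higher in replicate 1, with a median of -0.63. These groups also differed in median level, at 24.7 RPKM with a match, 2.27 RPKM without and 1.51 RPKM for no window. A link between the motif and the difference was not tested.

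Other genes of amino acid handling, taken from lists of known pathway members, had medians nearer 0. In the amino acid response list of ATF4 and its known targets, 25 of 26 genes were listed, 10 were higher in replicate 1 and 15 in replicate 2, and the median difference was 0.075. ATF4 itself was nearly level, at 141 RPKM in replicate 1 and 139 RPKM in replicate 2. PSAT1, a serine synthesis enzyme, stood at 131 and 98.0 RPKM, and EIF4EBP1, a translation repressor, at 104 and 85.4 RPKM. None of the list was at least 2-fold higher in replicate 1, where 6.14% of all compared genes were. Toward replicate 2 there were 2 of 25, DDIT4 and VLDLR, where 4.76% of all compared genes were. DDIT4 had 90 and 787 reads, a difference of 3.09 and so a wider gap than that of SLC7A5. VLDLR had 172 and 375 reads, a difference of 1.10.

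The list of GCN2 and amino acid sensing genes, which report amino acid supply to translation and to mTORC1, split 17 to 17 with a median of 0.010. Its highest members were LAMTOR4, RRAGA and GCN1, at 39.8 ± 10.7, 37.1 ± 5.84 and 35.7 ± 8.74 RPKM (SD, n = 2). The cytosolic aminoacyl-tRNA synthetases differed by -0.075 in the median, and 14 of 20 were higher in replicate 1, beside 47.9% of all compared genes. They were led in level by NARS, QARS and KARS, at 67.2 ± 0.172, 63.2 ± 5.09 and 60.04 ± 0.636 RPKM. Genes of glutamine and glutathione metabolism had a median of -0.074, with 7 of 12 higher in replicate 1, beside the same 47.9%. The transaminase GOT2 led this list at 61.7 ± 16.8 RPKM, followed by GLUD1 and GLUL at 37.8 ± 2.88 and 29.6 ± 0.999 RPKM. None of these 3 lists held a gene past 2-fold, where 10.9% of all compared genes passed in either direction. Their median levels, 6.54, 39.4 and 8.85 RPKM in the order given, were above the 2.31 RPKM over all genes.

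Amino acid transporters of other families also had a median on the side of replicate 1, at -0.21. By sign alone, 14 of 18 listed genes were higher there, beside 47.9% of all compared genes. Some of the 14 were nearly level, such as SLC25A38 at -0.089 and SLC25A29 at -0.099. The taurine transporter SLC6A6 was the highest, at 29.6 ± 1.27 RPKM (SD, n = 2), followed by the mitochondrial aspartate-glutamate carrier SLC25A13 at 26.3 ± 0.822 RPKM and the creatine transporter SLC6A8 at 19.8 ± 8.90 RPKM. At least 2-fold higher in replicate 1 were 2 of the 18, where 6.14% of all compared genes were. They were SLC6A9, a glycine transporter, with 347 and 150 reads, and SLC6A17 with only 18 and 7 reads.

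**Figure D5:**
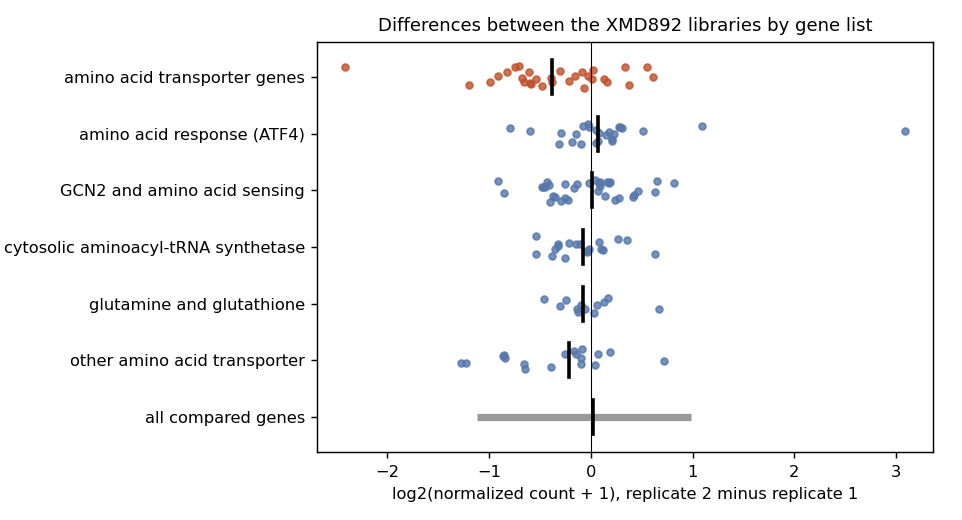
Difference between the XMD892 libraries (replicate 2 minus replicate 1, log2 scale) for each compared gene of the transporter set and of 5 related lists, with the median as a black line; the last row gives the median and, in grey, the range from percentile 5 to 95 of all compared genes. Medians run from -0.39 for the transporter genes to 0.075 for the amino acid response list.

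The libraries also differed in genes outside amino acid transport. All 10 pluripotency markers reached 1 RPKM in each library and their median was 129 RPKM, as the cell type label says. By sign these markers were evenly divided, 5 toward each library, and the median difference was -0.044. POU5F1 had the widest gap, 2.09-fold toward replicate 2. Toward replicate 1 the widest gaps were those of SALL4 (1.81-fold) and DNMT3B (1.62-fold). Of 8 fibroblast markers 3 were listed, and COL3A1, DCN, LUM, POSTN and TWIST1 were not. The listed ones summed to 14.02 RPKM in replicate 1 and 4.93 RPKM in replicate 2. Most of that gap was COL1A1, at 7.85 and 0.987 RPKM (1429 and 196 reads). Its difference of -2.88 was more negative than that of SLC7A5. The differences of COL1A2 and PDGFRA were smaller, at -0.54 and -0.49, and PDGFRA had only 28 and 20 reads. Of 4 neuroectoderm markers 3 were listed, summing to 173 and 90.7 RPKM, almost all of it NES, which pluripotent cells also express. NES was 1.77-fold higher in replicate 1. OTX2, at a low level, was 3.75-fold higher there on 128 and 34 reads, and SOX1 1.33-fold on 42 and 32 reads. Of 4 mesoderm markers 4 were listed, summing to 62.3 and 149.8 normalized counts, with MIXL1 at 31 and 104 reads. Further, 1 of 5 endoderm markers was listed (GATA4, 2 and 4 reads), and 3 of 4 trophoblast markers summed to 1.16 and 1.09 RPKM. The mitochondrially encoded genes took 4.81% of the reads in replicate 1 and 5.34% in replicate 2. The part of these differences in the gaps of SLC7A5 and the other transporter genes was not tested.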

How the data were processed

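Per the submitters' processing notes, the tools were Trimmomatic 0.36, STAR, featureCounts 1.5.3 and DESeq2 1.26.0 and the build hg38, with no roles stated. Not given in the sources used here: annotation and strand setting. The authors deposited a normalized signal, which is a gene count over a size factor of the library: 100% of 19775 values in each used column were whole multiples of 1 step, within 0.01 reads. Whole reads were recovered with that step (size factors 0.932 and 0.948). Of 9 columns of values, 7 were not used, because their names match no sample; 1 of these is named for XMD892 at 12 h, replicate 3, so means, SDs and gaps cover 2 of 3 columns so named. The planned limma test of XMD892 against E8, with its edgeR and DESeq2 alternatives, was therefore not run.

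RPKM used merged exon lengths from GENCODE 29 (GRCh38) and the recovered reads of all listed genes; 513 genes had no single gene ID and no length. Folds are ratios of normalized counts; counts of genes past 2-fold use log2(normalized count + 1). Intervals are exact (Clopper-Pearson) 95% intervals on the recovered reads; they cover counting error only. TMM factors came from edgeR 4.0.16 in R 4.3.3, other steps from Python 3.11.15. The differences and intervals were checked on simulated counts that held counting error only. That check covers the calculation and cannot say how far real libraries of 1 treatment differ. Shared words are 50-base stretches of a gene's transcripts that occur in transcripts of another gene on either strand; 4 members shared over 20%. Members and lists were chosen with earlier results of these data known. The text gives values per library for those with a mean of at least 5 RPKM, those that differ at least 2-fold and average 50 normalized counts or more, and both heavy chains; others are given by role. Of the other lists, counts and the 3 genes with the highest RPKM are named, and some genes where a count refers to them; those, the order of families and SLC1A4 were picked after their values were seen.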

Additional observations from a re-analysis of the deposited data

How the results depend on the processing

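The count of members at 1 RPKM in both libraries was 22, and it was 24 and 23 in the remaining library without replicate 1 and without replicate 2, 24 with the longest transcript as length, 22 with TMM library sizes, 25 at 0.5 RPKM and 16 at 2 RPKM. The median RPKM of the members was 2.29; it was 2.15 without replicate 1 and 2.74 without replicate 2, 3.95 with the longest transcript as length, 2.87 over the members averaging 10 or more normalized counts and 2.28 with TMM library sizes. The median difference of the members was -0.39; it was -0.30 with no minimum, -0.34 with a minimum of 50, -0.49 with total reads as the scale and -0.40 with TMM, and it stayed at -0.39 with a pseudocount of 0.5 or 5. Of 30 single differences, 7 left their counting interval with total reads as the scale and 0 did with TMM or with either pseudocount. Of 33 levels, 20 moved by more than the SD of the libraries with the longest transcript as length, all upward by construction, SLC3A2 from 67.0 to 156 RPKM. No paired analysis was possible because no column matched the E8 samples. The comparison of XMD892 with E8, and every alternative planned for it, was not run for the same reason. No limit of depth bears on the abundant members; for SLC1A2, SLC1A4, SLC38A3 and the 3 members below the minimum, counts are too low to place the ratio closely.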
